A study of Mus musculus with 22 samples.

Results

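The 73 genes described here are interleukins, their receptors and their secreted or decoy antagonists, measured in 22 colon tumours, each from a male mouse of the FVB/N strain. They are all the genes on the array whose symbol starts with Il and a number, apart from Il6, Il11 and Il6st, out of 19505 named genes in all. Each of them had 1 probe set, the unit that reports a gene on the array. The tumours were induced with azoxymethane, a chemical carcinogen, in every group. Controls were 6 mice on low-fat feed in which fat made up 10% of calories. Diet-induced obesity came from feed with 60% of calories as fat, given to 5 mice without drug. Another 6 mice on that 60% feed were given sulindac, a nonsteroidal anti-inflammatory drug that inhibits cyclooxygenases. Formerly obese mice, 5 in all, had the high-fat feed replaced by low-fat feed and had no drug. The labels give neither ages, doses nor the timing of diet and drug, and 1 obese sulindac tumour is titled Mouse_X in place of a number.

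Interleukins are secreted proteins through which immune, epithelial and stromal cells signal to each other. The IL-1 family ligands act through paired receptor chains that recruit the adaptor Myd88 and turn on NF-kB, and are held in check by a receptor antagonist and by decoy receptors. Most other interleukins bind chains that activate Janus kinases and STAT factors, while the IL-17 family uses its own receptor family. In the colon, IL-22 acts on epithelial cells, IL-23 on lymphocytes that make IL-17 and IL-22, and IL-1 beta is made largely by myeloid cells.

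The deposited values are levels read as log2, so a difference of 1 is a 2-fold difference. They ran from 3.34 to 19.49, with array medians between 6.67 and 6.83, and any 2 arrays correlated across all probe sets at between 0.9467 and 0.9882. Most of the 10 epithelial markers were high in every tumour, with Epcam between 16.67 and 17.43. The transcription factor Cdx1, between 5.21 and 10.49, and the colon transcription factor Cdx2, between 5.92 and 13.64, were low in some. Markers of other cells were also present, and bulk RNA cannot tell fewer cells of a type from less RNA per cell. Because the values carry no detection call, the 95th percentile of the mean levels of 1091 olfactory receptor genes, 4.965, served as a mark of dim signal. A gene below that mark may still be expressed.

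By this mark, receptors were seen far more often than ligands. Of the 36 receptor chains, 30 had a mean above the mark, against 15 of the 35 ligands and antagonists. The 2 other members, Il16 and Il34, which signal through CD4 and Csf1r, were both above it. Overall 47 of the 73 genes, 64.4%, were above the mark and 26 were not, close to the 69.2% of all named genes above it. Of the 26, 6 did not exceed it in any tumour: the T cell growth factor Il2, Il20, Il21, Il25, Il31 and the IL-31 receptor chain Il31ra.

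The roles differed in the same way. In the IL-1 family, 8 of 11 ligands and antagonists and 7 of 8 receptors were above the mark. The ligands above it were the inflammatory cytokines Il1a and Il1b, Il18, the alarmin Il33, and the IL-36 cytokines Il1f6 and Il1f9, which are now called IL-36 alpha and gamma. The antagonists above it were Il1rn, the IL-1 receptor antagonist, and Il18bp, which binds and blocks IL-18. Of the 10 cytokines of the common gamma chain and type 2 groups only Il7 and Il15, both survival factors for lymphocytes, were above it, but 9 of their 12 receptor chains were. None of the 5 IL-10 family ligands was above it, while 5 of the 6 receptors were, including the epithelial IL-22 receptor Il22ra1. Il22 itself lay between 4.05 and 6.23 with a median of 4.50, and its near-identical copy Iltifb is on the same array, so signals of the pair may not be separate. Of the IL-12, IL-23 and IL-27 ligands, Il23a was above the mark and Il12a and Il27 were not, and of the group of their receptors with Il6ra 4 of 5 chains were, all but Il12rb1. In the IL-17 family, 4 of 6 ligands and all 5 receptors were above it. Il17a, the main cytokine of that family, lay between 4.58 and 6.10 and was above the mark in 15 of 22 tumours.

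Interleukin genes varied more between tumours than most genes did. The spread of each gene was measured as its SD after removing the 4 group means, and ranked among all 19505 named genes. The median rank of the 73 genes was the 71.8th percentile, and 18 of them, 24.7%, lay above the 90th percentile, where 10.0% of all named genes lie. Dim genes vary little on an array, so the 47 genes above the dim mark were set beside the 13501 named genes above it. Of these 47, 38.3% lay above the 90th percentile, against 14.2% of the 13501. These shares are descriptions of the list, without a test.

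Ranked by this SD, the first 8 genes were Il23a, Il1f9, Il1b, Il1a, Il18, Il1rn, Il18bp and Il1rap, and 7 of these 8 belong to the IL-1 family. Il23a, the subunit that defines IL-23, had an SD of 1.68, at the 99.18th percentile, and ranged from 6.55 to 12.25. Il1f9, an epithelial IL-1 family cytokine, had an SD of 1.64 and ranged from 4.83 to 11.47, a 99.73-fold range. Il1b had an SD of 1.61 and ranged from 6.83 to 13.61, a 109.9-fold range. For both Il1b and Il1f9 the extremes were 2 tumours of the same group, Mouse_114 and Mouse_X of the obese sulindac mice.

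**Figure D1:**
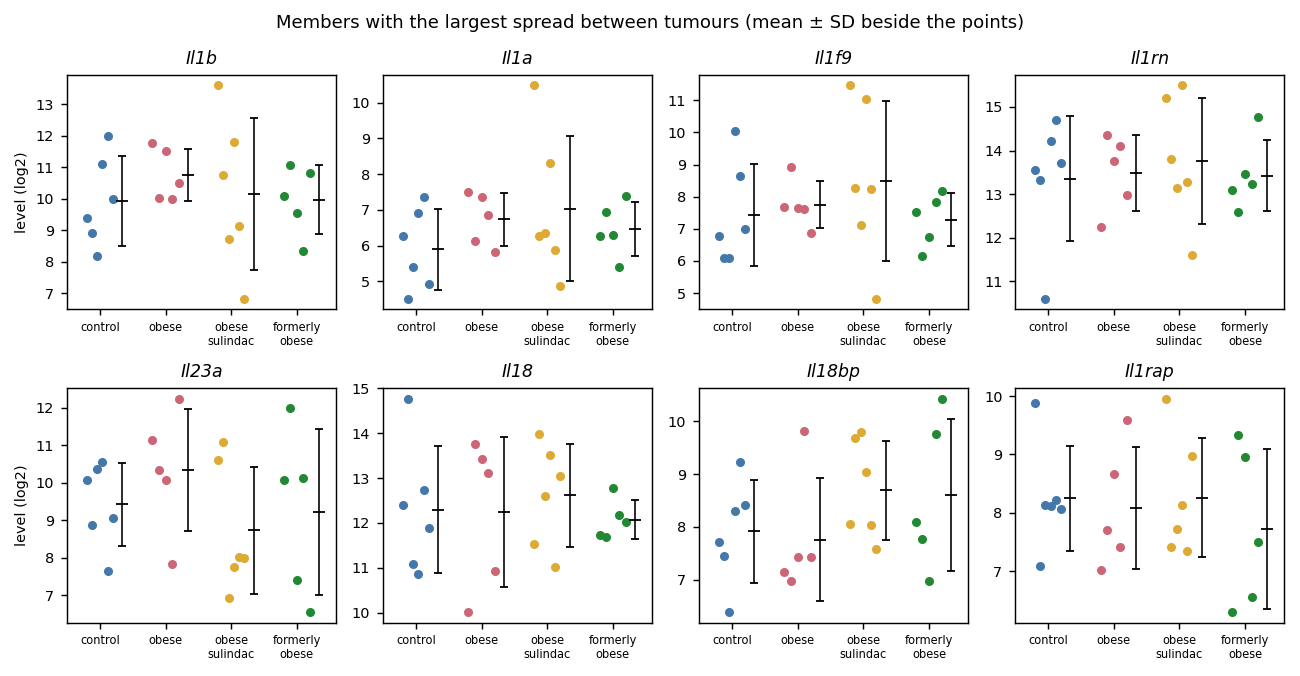
Log2 levels (y axis) of the 8 interleukin genes with the largest spread between tumours in the 4 groups (x axis); each point is 1 tumour, and the bar beside it is the group mean ± SD (n = 6, 5, 6 and 5). The obese sulindac tumours span the whole range of Il1b, from 6.83 to 13.61, and no gene separates the groups.

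The promoter stretches of 5 IL-1 family genes are shown because Il1a, Il1r2 and Il1rn were each correlated with Il1b in the tests of pairs given below and the last, Il1f9, is the IL-1 family gene with the largest spread. They come from RefSeq on GRCm38.p6, a C57BL/6J assembly, so FVB/N bases may differ. Of the 73 genes, 56 have a promoter in that table. The 250 bases before the annotated start were searched on both strands for 6 motifs, and matches are in capitals. The whole window is printed for Il1f9 and, at the first of its 3 annotated starts, for Il1rn. For the 3 others, whose windows lie partly or wholly inside the gene's outer bounds, the 30 bases around the matches are printed. All 250 bases of the Il1r2 window are inside those bounds, as are 214 for Il1a and 25 for Il1b. All are given 5′ to 3′ on the strand of the gene. The Il1a stretch lies at chr2:129309977-129310006 (minus strand), that of Il1b at chr2:129371153-129371182 (minus), that of Il1r2 at chr1:40085971-40086000 (plus), that of Il1f9 at chr2:24186226-24186475 (plus) and that of Il1rn at chr2:24336610-24336859 (plus).
Il1a: acTATAAAaaggcagagaagccTGACTCAg
Il1b: gctttttaggacTATAAAacaagggaggga
Il1r2: gcgggtgctttTTCAAGGAActtccgacta
Il1f9: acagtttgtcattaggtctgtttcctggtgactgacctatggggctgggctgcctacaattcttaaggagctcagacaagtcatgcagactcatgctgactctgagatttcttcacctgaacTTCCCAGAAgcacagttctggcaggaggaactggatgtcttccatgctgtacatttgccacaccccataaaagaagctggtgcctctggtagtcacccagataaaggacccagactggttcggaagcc
Il1rn: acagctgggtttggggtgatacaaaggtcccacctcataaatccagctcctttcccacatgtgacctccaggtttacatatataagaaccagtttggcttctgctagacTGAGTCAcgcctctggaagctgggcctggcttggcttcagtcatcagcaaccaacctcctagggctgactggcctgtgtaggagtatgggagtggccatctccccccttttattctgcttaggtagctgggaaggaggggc

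The capitals in Il1a mark a TATA box, TATAAA, from 32 to 27 bases before the start, and an AP-1 motif, TGANTCA, matched as TGACTCA from 12 to 6 bases before it. Il1b has the TATA box from 31 to 26 bases before its start. TATAAA is present in 12.4% and TGANTCA in 6.75% of the 32851 promoters of the table. Il1rn has the AP-1 motif as TGAGTCA from 141 to 135 bases before the start. Il1f9 and Il1r2 each hold the STAT motif TTCNNNGAA, found in 7.02% of promoters, from 128 to 120 and from 111 to 103 bases before the start. The NF-kB motif GGG and TTCC set 3 bases apart (4.65%), the C/EBP motif TTGCNNAA (9.56%) and the PU.1 motif GAGGAAGT (2.44%) have no match in these 5 windows, though at the third start of Il1rn, not printed, the NF-kB motif matches from 51 to 42 bases before the start. These are matches of letters only.

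No interleukin gene differed between the groups after adjustment over all 22203 probe sets. With limma's moderated test and Benjamini-Hochberg adjustment, 0 of the 73 genes reached an adjusted p of 0.05 in any of the 3 main comparisons, and 0% of all probe sets did. The F test over the 4 groups called none either. The arrays per group limit the precision: the median standard error of a difference was 0.27 to 0.28 log2 units, and for Il1b and Il23a it was 0.90 to 0.98. The 3 main comparisons all use the same 5 obese tumours, so they are not independent of each other.

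Obese and control tumours had 36 genes higher and 37 lower, with a median difference of -0.0023 against -0.0017 over all named genes. The 49.3% that were higher stand beside 49.1% of all probe sets. At an unadjusted p under 0.05 there was 1 gene higher and 1 lower, 2.74% of the genes against 4.03% of all probe sets. The higher gene was Il1r1, the signalling receptor for IL-1. Its 5 obese tumours had levels of 11.18, 11.25, 11.39, 11.50 and 11.60, and its control tumours ran from 9.79 through a median of 10.83 to 11.39. All 5 obese tumours were above the control mean, but the ranges overlap. The mean difference was 0.69 ± 0.26 (SE; 95% interval 0.14 to 1.23; adjusted p = 0.9998 by limma). The lower gene was Il1f5, now IL-36 receptor antagonist, a dim gene with a difference of -0.36 ± 0.17 (SE).

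Other members with the smallest p in this comparison were not separated either. Il17re, the receptor chain for epithelial IL-17C, had a difference of -1.04 ± 0.52 (SE; -2.11 to 0.04). Its obese levels were 5.29, 6.45, 6.53, 7.08 and 7.77, within or below the control range of 6.47 to 8.95. Il15 had a difference of -0.91 ± 0.53 (-0.59 without Mouse_20) and the IL-22 decoy receptor Il22ra2 one of 0.37 ± 0.19. Il22ra2 is dim, with a mean of 4.58 over all tumours and 4 tumours above the mark. All 6 IL-17 family ligands, of which Il17f and Il25 are dim, had a higher mean in obese than in control tumours. The count was 5 when each array was centred on its median, and 49.1% of all probe sets were higher. Formerly obese and obese sulindac tumours also had higher means than controls for all 6. By contrast, the 5 IL-10 family ligands, each dim, all had lower means in obese tumours. Il17b, with 0.41 ± 0.22 (0.24 without Mouse_101), had the smallest p of the IL-17 ligands. Its control mean, 4.72, is below the dim mark. In the same comparison 12 of 13 neutrophil markers and all 12 macrophage and monocyte markers had higher means in obese tumours, with median differences of 0.61 (0.22 without Mouse_20) and 0.35 (0.14 without Mouse_109). All 9 B and plasma cell markers were higher too, by 0.30 (0.14 without Mouse_109), and 9 of 10 epithelial markers were lower, by -0.33 (-0.0458 without Mouse_96 and -0.075 without Mouse_113). None of these markers passed the adjusted test, and their part in the differences above was not tested. Camp, Ngp, Cd163, Pax5 and Tnfrsf17 are below the dim mark.

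Formerly obese and obese tumours had 37 genes higher and 36 lower, or 50.7% higher, as for 50.7% of all probe sets. The median difference was 0.006. An unadjusted p under 0.05 was seen for 1 higher and 2 lower genes, which is 4.11% of them, against 5.69% of all probe sets. The smallest p belonged to Il13ra2, a receptor chain that binds IL-13 and is mainly known as a decoy. Its obese levels were 5.24, 5.63, 5.85, 5.87 and 6.0, and its formerly obese levels were 4.66, 4.84, 5.05, 5.09 and 5.27. Only the highest formerly obese tumour, at 5.27, overlapped the obese range. The difference was -0.74 ± 0.21 (SE; -1.17 to -0.31; adjusted p = 0.866 by limma). These levels are close to the dim mark, where an array compresses differences.

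Il17d, a member of the IL-17 family, was the gene with the smallest p among those higher in formerly obese tumours. Its formerly obese levels were 5.74, 5.97, 6.02, 6.04 and 6.17, and its obese levels were 5.06, 5.33, 5.56, 5.85 and 5.86. All but 1 of the formerly obese tumours were above every obese tumour. The difference was 0.46 ± 0.17 (SE; 0.11 to 0.80; adjusted p = 0.866 by limma). The other lower gene was Il1f10, or IL-38, with -0.62 ± 0.24, whose mean lies below the dim mark. Il1r1 had a difference of -0.48 ± 0.27 and Il22ra1 one of 1.03 ± 0.60, which was 0.46 without the obese Mouse_113. Of the 8 IL-1 family receptors 7 had lower means in formerly obese tumours, and all 5 IL-17 receptors had higher ones, beside 50.7% of all probe sets higher. None of these receptors had an unadjusted p under 0.05 by limma. Some directions turned when 1 tumour was left out: Il17ra without Mouse_152, Il17rb and Il1rap without Mouse_113, and Il17rd without Mouse_140. In this comparison 12 of 13 neutrophil markers and all 9 fibroblast markers had lower means, with median differences of -0.89 and -0.43 (-0.71 without Mouse_140). Of the 7 endothelial markers 6 were lower, by -0.49, and of the 8 smooth muscle markers 7 were higher, by 0.40. The smooth muscle list's mean ran from 8.35 to 11.55 in formerly obese tumours, with Mouse_134 the highest. The neutrophil markers Camp and Ngp and the fibroblast marker Fap are below the dim mark. Of the macrophage and monocyte markers 11 of 12 were lower, by -0.36 (-0.21 without Mouse_109 and -0.66 without Mouse_152), and 9 of 10 epithelial markers were higher, by 0.39 (0.145 without Mouse_113). The part of these cells in the values for Il1r1 and Il22ra1 was not tested.

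Sulindac-treated and untreated obese tumours had 47 genes higher and 26 lower. The 64.4% that were higher stand beside 51.7% of all probe sets, and the median difference was 0.095 (0.0325 without the obese Mouse_96) against 0.007 over all named genes. An unadjusted p under 0.05 was seen for 3 higher genes and 1 lower gene, which is 5.48% of them, against 6.55% of all probe sets. Il13ra2 was the lower one, with levels from 4.72 through a median of 5.06 to 5.66 in the sulindac group. All but 1 of these 6 tumours were below the lowest obese tumour. The difference was -0.63 ± 0.20 (SE; -1.04 to -0.22; adjusted p = 0.6427 by limma).

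The 3 higher genes were receptor chains. Il20rb, a shared chain of the receptors for IL-19, IL-20 and IL-24, had sulindac levels from 5.07 through a median of 6.05 to 6.55. Its obese levels were 4.85, 5.06, 5.14, 5.38 and 5.40, so 4 of the 6 sulindac tumours were above every obese tumour. These obese levels are close to the dim mark, and the lowest is below it. The difference was 0.72 ± 0.25 (SE; 0.21 to 1.24; adjusted p = 0.6701 by limma). Il10ra, the ligand-binding chain of the IL-10 receptor, ran from 7.23 through a median of 8.64 to 9.98 in the sulindac group. The obese levels were 6.96, 7.57, 7.72, 7.84 and 8.09, and 5 of 6 sulindac tumours were above all of them. The difference was 1.0 ± 0.40 (SE; 0.18 to 1.83; adjusted p = 0.70 by limma). The third, Il23r, the receptor for IL-23, had a difference of 0.67 ± 0.31 (adjusted p = 0.7587 by limma).

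The IL-23 subunit Il23a had the largest difference of the named genes here, -1.60 ± 0.94 (SE; -3.55 to 0.35; adjusted p = 0.8171 by limma). Its sulindac levels ran from 6.92 through a median of 8.0 to 11.08, against 7.84, 10.07, 10.34, 11.14 and 12.25 in obese tumours, and the ranges overlap over most of their length. Il1b differed by -0.62 ± 0.90, and this difference rested on single tumours: it was -1.31 without Mouse_114 and 0.05 without Mouse_X. That of Il1a, 0.30 ± 0.74, was -0.40 without Mouse_114. All 8 smooth muscle markers had higher means with sulindac, by a median of 0.55, and 0 of them passed the adjusted test. The 6 tuft cell markers, of which Pou2f3 and Gfi1b are dim, had higher means too, by a median of 0.26. But this rested on Mouse_131, without which 3 were higher and 3 lower, with a median of -0.029. Their part in the values above was not tested.

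**Figure D2:**
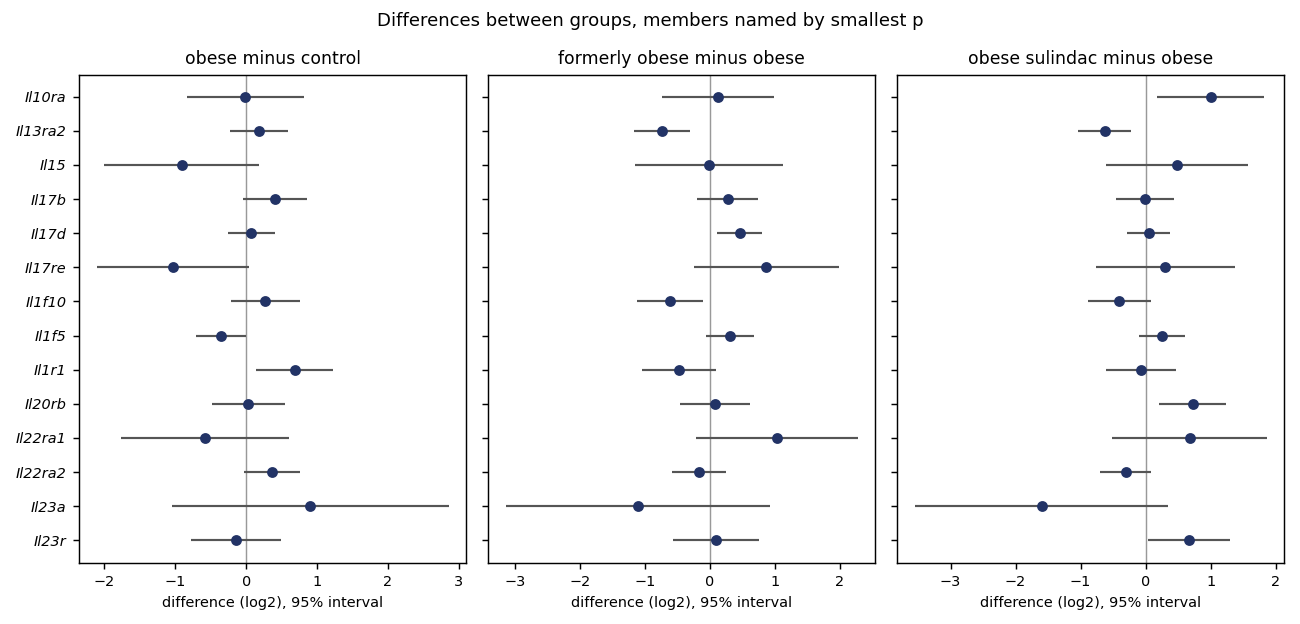
Differences in mean log2 level (x axis) with 95% limma intervals for the interleukin genes with the smallest p in any main comparison (y axis), in the 3 main comparisons, which share the 5 obese tumours. Il13ra2 lies below 0 for formerly obese minus obese (-0.74) and for obese sulindac minus obese (-0.63), and no difference passed the adjusted test.

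The 3 other pairs of groups gave 0 calls too. The share of genes at an unadjusted p under 0.05 was 4.11% for formerly obese minus control (5.54% of all probe sets), 6.85% for obese sulindac minus control (6.63%) and 5.48% for obese sulindac minus formerly obese (6.62%). In 1 of all 6 comparisons a single gene had groups without overlap: Il17b was higher in every formerly obese than in every control tumour, as were 0.194% of all probe sets. Its 5 formerly obese levels were 4.91, 5.13, 5.30, 5.57 and 6.08, and the highest of the 6 control levels was 4.90, after a lowest of 4.53 and a median of 4.72. The difference was 0.68 ± 0.22 (SE; adjusted p = 0.7578 by limma), and the lower of these levels lie below the dim mark. Over all 4 groups, Il13ra2 had the smallest F test p (adjusted p = 0.7548 by limma), followed by Il20rb and Il17d. Il13ra2 averaged 5.53 ± 0.40 (SD, n = 6) in control, 5.72 ± 0.30 (n = 5) in obese, 5.09 ± 0.33 (n = 6) in obese sulindac and 4.98 ± 0.24 (n = 5) in formerly obese tumours.

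Other genes of interleukin signalling, not all of which act downstream of the receptors, gave the same count of calls. Of a list of 40 signalling genes, 32 were measured, and 18 had higher means in obese than in control tumours, or 56.3% against 49.1% of all probe sets. There were 2 with an unadjusted p under 0.05 (6.25% against 4.03%), both higher: the inflammatory caspase Casp4, with 1.28 ± 0.44, and Irak3, an inhibitor of IL-1 receptor signalling, with 0.80 ± 0.37 (both adjusted p = 0.9998 by limma). In formerly obese minus obese tumours 18 of the 32 were higher (56.3% against 50.7%), and Irak3, at -0.81 ± 0.38, was the 1 gene under an unadjusted p of 0.05 (3.13% against 5.69%). With sulindac 20 of the 32 were higher (62.5% against 51.7%). The 1 gene under an unadjusted p of 0.05 (3.13% against 6.55%) was Traf6, an adaptor of the IL-1 and IL-17 receptors, with 0.40 ± 0.16 (adjusted p = 0.70 by limma). The adaptor Myd88 differed by 0.22 ± 0.32, 0.07 ± 0.34 and 0.18 ± 0.32 in the 3 comparisons.

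**Figure D3:**
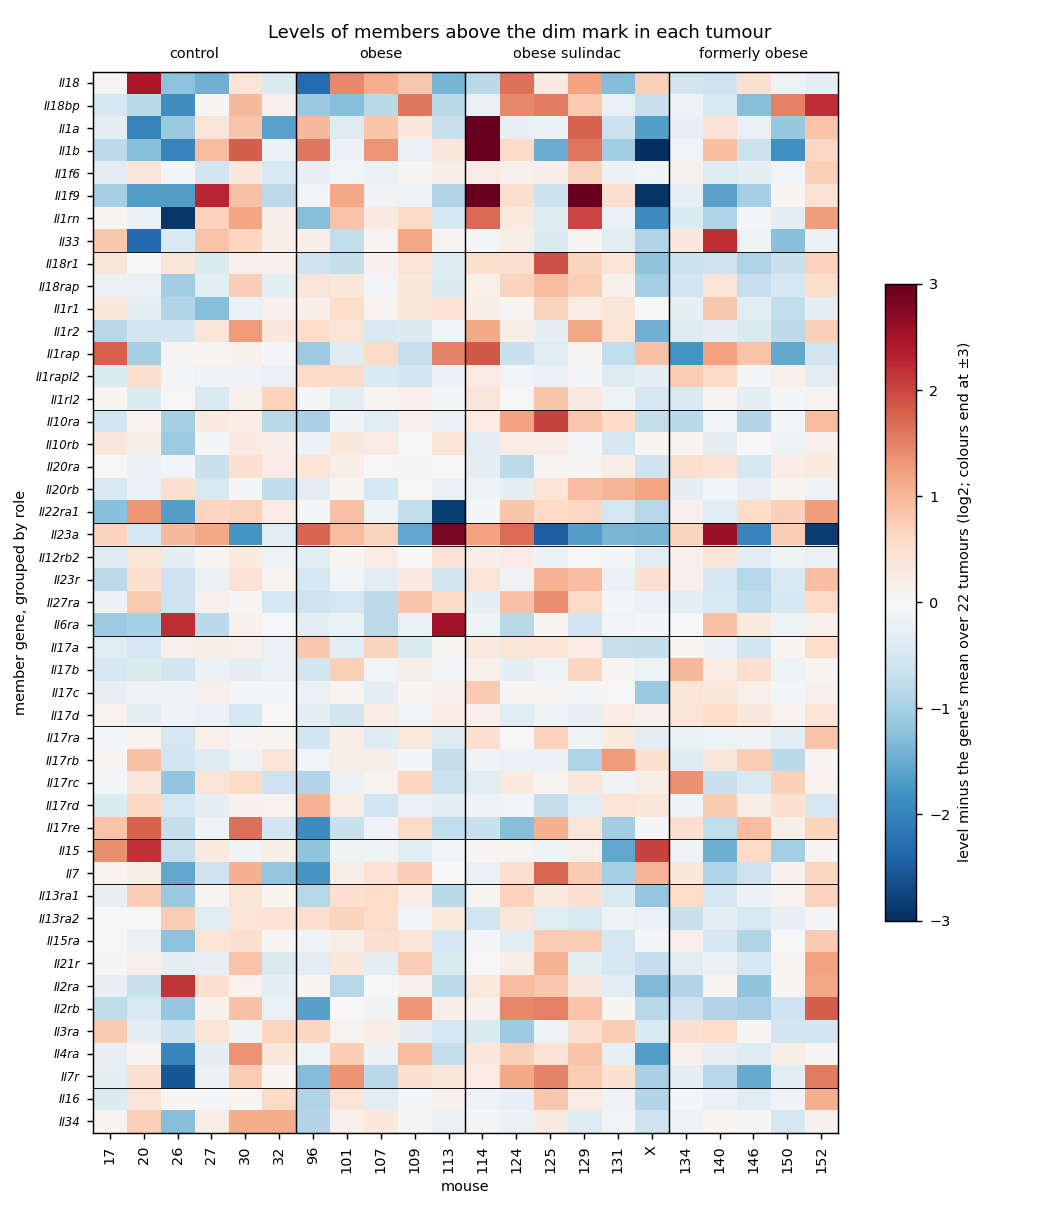
Level of each of the 47 interleukin genes above the dim mark (y axis, grouped by role) in each of the 22 tumours (x axis, grouped by regimen), as log2 difference from the gene's own mean; colours end at ±3. Mouse_114 is high and Mouse_X low for Il1a, Il1b and Il1f9, while Il18 is lower in Mouse_114 (11.52) than in Mouse_X (13.04), and both are obese sulindac tumours.

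Although the groups did not separate these genes, some of them moved together from tumour to tumour. Correlations were computed for 21 pairs of members that act together, such as a ligand with its receptor or antagonist or 2 chains of a receptor, over all 22 tumours with 100000 permutations each and Benjamini-Hochberg adjustment over the 21. In all, 5 pairs passed an adjusted p of 0.05 by both Pearson's r and Spearman's rho, and these 5 also passed after removing the group means. The labels name no batch, so none could be tested within.

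The strongest was Il1a with Il1b, 2 cytokines that use the same receptor, with r = 0.851 and rho = 0.831 (permutation, adjusted p = 0.00021 and 0.00042). Without the 2 tumours farthest from the median Il1a level, Mouse_114 and Mouse_129, r was 0.788. Il1b with the decoy receptor Il1r2 gave r = 0.791 and rho = 0.754 (permutation, adjusted p = 0.00021 and 0.00126), and r = 0.678 without Mouse_114 and Mouse_X. Il1r2 takes up IL-1 without signalling. In contrast, Il1b with the signalling receptor Il1r1 gave r = 0.164 and rho = 0.129 (permutation p = 0.468 and 0.566), and whether the 2 correlations differ was not tested. Il1b with the receptor antagonist Il1rn gave r = 0.649 and rho = 0.572 (permutation, adjusted p = 0.00672 and 0.0296), and r = 0.493 without Mouse_114 and Mouse_X.

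The tumours at the ends show what these correlations rest on. Mouse_114 had the highest Il1a (10.49) and Il1b (13.61) of all tumours, with Il1r2 at 8.07 and Il1rn at 15.21. Mouse_129, of the same group, had 8.30, 11.79, 8.09 and 15.50 for these genes. Mouse_X had 4.88, 6.83, 5.51 and 11.59, the lowest Il1b and Il1r2 of the 22. Among controls, Mouse_30 was highest, with 7.37, 12.00, 8.22 and 14.70. High and low tumours were thus found within single groups.

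The 2 remaining pairs were of receptors and of a ligand with its receptor. Il4ra and Il13ra1, the chains that together form the type 2 receptor for IL-4 and IL-13, gave r = 0.768 and rho = 0.629 (permutation, adjusted p = 0.00021 and 0.0159), and r = 0.585 without Mouse_26 and Mouse_X. Il7 with its receptor Il7r gave r = 0.622 and rho = 0.565 (permutation, adjusted p = 0.00848 and 0.0299), and r = 0.435 without Mouse_96 and Mouse_26. Without Mouse_26 alone it was 0.531 with an adjusted permutation p of 0.0508 (20000 permutations), so the call was lost by a narrow margin. Pairs that did not pass include Il18 with Il18bp (r = 0.194), Il10 with Il10ra (r = -0.139), Il17a with Il17f (r = 0.078) and Il22 with Il22ra1 (r = 0.186), and the ligands Il10, Il17f and Il22 of these are dim.

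**Figure D4:**
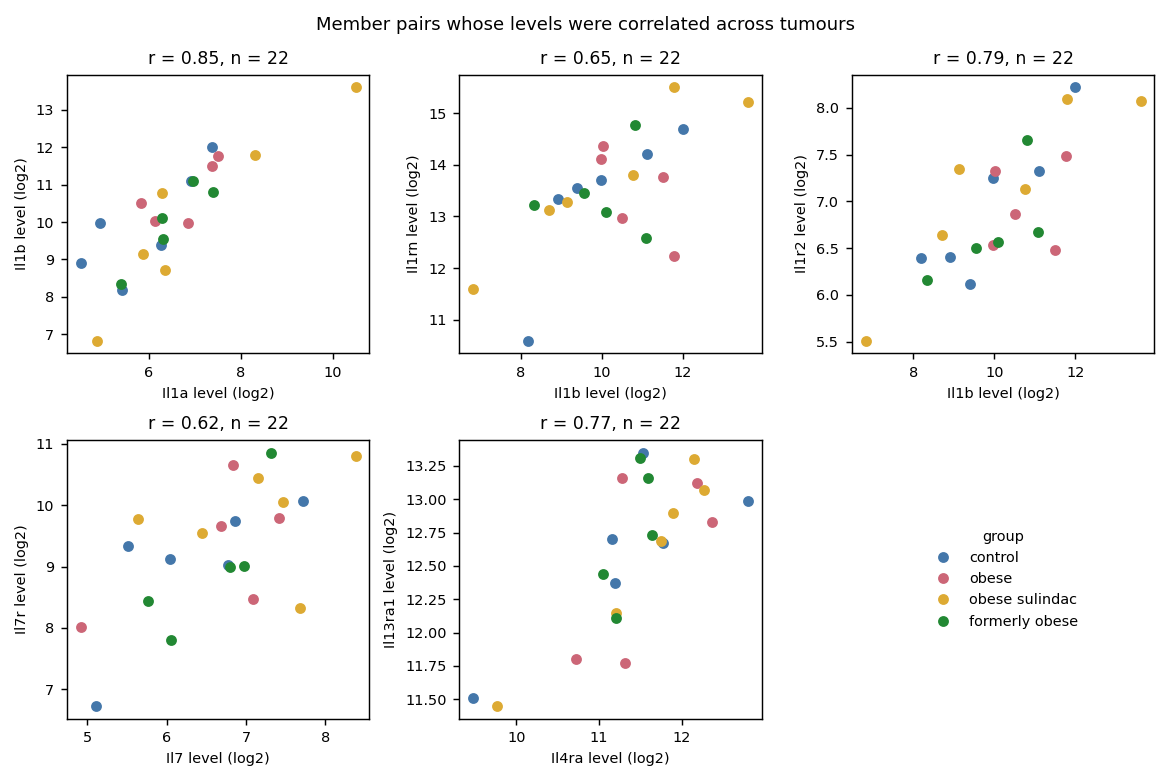
Log2 levels of the 5 pairs of interleukin genes that passed the correlation test, 1 gene on each axis, with 1 point per tumour (n = 22) coloured by group. Tumours of all 4 groups lie along the same cloud, and the Il1a and Il1b panel has r = 0.85.

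The levels of many members also followed markers of cell types. For 37 members of a fixed set and 10 lists of marker genes, the level of each member was correlated with the mean level of each list, and 29 of these 370 relations passed an adjusted p of 0.05 by both measures. Of those, 9 were with T and cytotoxic cells, 7 with macrophages and monocytes, 4 each with neutrophils, B and plasma cells, and epithelium, and 1 with fibroblasts. None was with endothelium, mast cells, smooth muscle or tuft cells. Every relation uses the same 22 bulk tumours, so it does not show which cells made the RNA.

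The 4 genes that went with neutrophil markers were all of the IL-1 family. Il1rn, Il1r1, Il1rap, Il33, Il18, Il18bp, Il18r1 and Il1f6, on the same family lists, were tested too and did not pass with neutrophils. Il1b gave r = 0.847 and rho = 0.829 (permutation, adjusted p = 0.000925 and 0.00222), Il1a r = 0.754 and rho = 0.636, Il1r2 r = 0.742 and rho = 0.697, and Il1f9 r = 0.699 and rho = 0.636. Without the 2 tumours farthest from the median of the neutrophil list these became 0.816, 0.565, 0.710 and 0.557. Of the 14 neutrophil markers 13 were measured, with S100a8 between 4.90 and 10.57, and the granule protein Camp, a marker of immature neutrophils, was below the dim mark. The list's mean ran from 6.15 to 8.42 in control, 7.67 to 9.01 in obese, 6.57 to 9.68 in obese sulindac and 6.96 to 8.23 in formerly obese tumours. Mouse_114 and Mouse_X, the ends of the Il1b range, were also the ends of this list among the sulindac tumours.

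Several receptors, and also Il18bp, Il7 and Il1rn, went with markers of T and cytotoxic cells, of macrophages and monocytes, or of both. How far these lists follow each other across tumours was not tested. Il7r, the IL-7 receptor of T cells, gave r = 0.888 with T and cytotoxic cells and 0.863 with macrophages and monocytes, with rho of 0.887 and 0.877 (permutation, adjusted p = 0.000925 and 0.00123 for r and rho in both). Il10ra gave 0.785 with macrophages and 0.745 with T cells (rho = 0.771 and 0.732). Il18bp gave 0.773 with T cells and 0.755 with macrophages (rho = 0.733 and 0.640). Il13ra1 (r = 0.698) and Il7 (r = 0.731) passed with T cells, and Il4ra and Il17ra with both lists, as did Il1rn, whose relation with T cells was lost without Mouse_26, Mouse_30 or Mouse_96. Il18r1 passed with macrophages (r = 0.604), a call lost when Mouse_125, Mouse_X, Mouse_140 or Mouse_152 was left out. Il15ra passed with T cells (r = 0.637), and that call was lost without Mouse_26 or Mouse_125.

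With B and plasma cell markers, Il7r, Il10ra, Il7 and Il1f6 passed. The Il7 and Il10ra calls were lost without Mouse_125, and that of Il1f6 (r = 0.579) was lost in 18 of the 22 sets with 1 tumour left out. With epithelial markers, 4 genes passed. Il13ra1, a chain of the IL-13 receptor, gave r = 0.828 and rho = 0.855 (permutation, adjusted p = 0.000925 and 0.00123). Il18, which epithelial cells make and store, gave r = 0.728 and rho = 0.685, and Il22ra1 r = 0.697 and rho = 0.692. Il4ra gave r = 0.634, a call lost without Mouse_26 or Mouse_30. With fibroblast markers, Il1r1 passed, with r = 0.670 and rho = 0.663 (permutation, adjusted p = 0.0101 and 0.0201), and r = 0.678 without the 2 farthest tumours. The part of cell makeup in the group differences of Il1r1 and Il10ra given above was not tested.

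**Figure D5:**
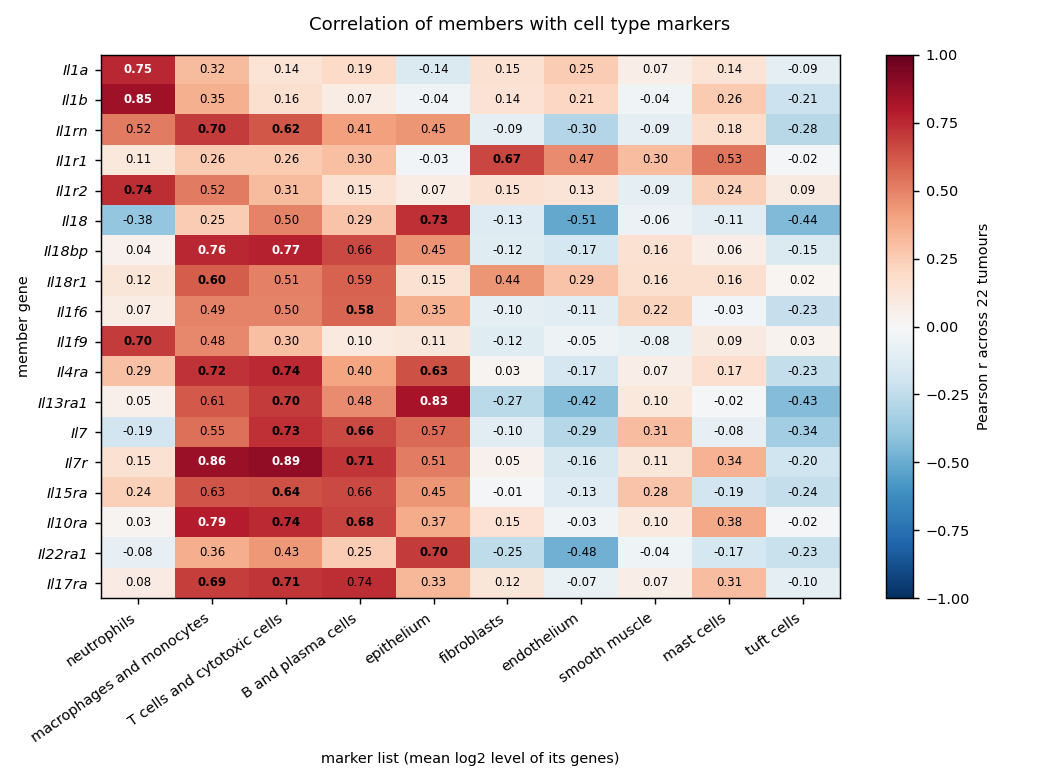
Pearson r across 22 tumours (colour and printed value) between interleukin genes (y axis) and the mean log2 level of each cell type's markers (x axis), for the genes with at least 1 relation that passed; bold values passed an adjusted p of 0.05 by both Pearson and Spearman. Il1a, Il1b, Il1r2 and Il1f9 are high with neutrophils, and Il7r with T cells (0.89) and macrophages (0.86).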

How the data were processed

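Total RNA of 22 tumours was hybridised to Clariom S arrays, 1 array per mouse. The deposited values are levels, read as log2 from their range, with 2 decimals; the authors made them with Transcriptome Analysis Console 4.0, per the submitters' processing notes, and how probes were summarized and normalized is not given in the sources used here. Such values are relative to the rest of the array, so a difference in total RNA is not seen. Gene names came from the platform annotation (19572 probe sets with 1 symbol, 2631 with none), all matched to GRCm38.p6.

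From these values, group means were fitted over all 22203 probe sets with limma 3.58.1 (lmFit, eBayes) in R 4.3.3, two-sided, with Benjamini-Hochberg adjustment over all probe sets. Correlations used 100000 permutations in scipy 1.17.1, two-sided, and the smallest p these can give is 1e-05. Where 1 tumour was left out, 20000 permutations were used. Only the limma fit, for obese against control, was tried on simulated data, with independent noise for each probe set. Apart from Mouse_X, every title carries a different mouse number, and no cage or litter is named.

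Named genes were a fixed set of 41 symbols (37 measured), the 3 smallest p-values per direction in each main comparison and 1 in each other comparison, the 8 largest spreads and the 3 smallest F test p-values. Other pathway and marker genes are examples from their lists. Il1rl1, Il2rg, Il12b and Il11ra1 are not analysed here. The members, lists and tests were chosen with earlier results of these data known. Alternatives were 2 other normalizations, a filter on dim probe sets, array weights, another variance prior, the 2 groups alone, an exact permutation test, other summaries of a symbol, removal of group means and leaving out each mouse; leaving out each mouse for the correlations and the marker lists was chosen after seeing the data.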

Additional observations from a re-analysis of the deposited data

Results flagged for a closer look

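Among 168 groups of 5 or 6 tumours (42 named genes in 4 regimens), 15 had a tumour set far apart from the rest by Dixon's criterion. Chance alone would flag about 1 in 20 independent groups, or 8.4. The genes share the same tumours, some vary together and some were named from these same data, so 8.4 is only a rough guide. Of the 15, 6 were Mouse_26, a control tumour. It was lowest for Il1rn at 10.60 (next 13.33), for Il7r at 6.73 (next 9.02), for Il10rb at 10.66 (next 11.69) and for Il17ra at 7.67 (next 8.18). It was highest for Il6ra at 10.14 (next 8.07) and for the dim Il10 at 5.61 (next 4.97).

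Among obese tumours, Mouse_113 was highest for Il6ra at 10.46 (next 7.73) and lowest for Il17rb at 5.04 (next 5.68). Mouse_109 was highest for Il18bp at 9.82 (next 7.43), and Mouse_96 lowest for Il15 at 6.99 (next 7.84). Among formerly obese tumours, Mouse_152 was highest for Il17ra at 9.07 (next 8.09) and Il18r1 at 6.99 (next 5.67), and Mouse_140 for the dim Il22 at 4.93 (next 4.50). Il22 was also highest in the control Mouse_27 at 6.23 (next 4.60), and the dim Il22ra2 in the obese sulindac Mouse_125 at 5.04 (next 4.50).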

How the results depend on the processing

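No member passed an adjusted p of 0.05 in a main comparison under any alternative run. The exact permutation test, adjusted over the 42 named genes, could not call a gene that stood alone. Its smallest possible p was 0.007937 for formerly obese minus obese and 0.002165 in each of the others. Other summaries of a symbol left the members' own values unchanged, because each had 1 probe set. The 5 called pairs of genes stayed at 5 except without Mouse_26, which gave 4. The relations with marker lists numbered 37 by Pearson's r, from 29 without Mouse_125 to 40 without Mouse_113. The count of members at an unadjusted p under 0.05 for obese minus control was 2, 1 with dim probe sets left out, 4 with array weights, and 1 to 5 when a tumour was left out (5 without Mouse_26). With sulindac it was 4, and 2 (without Mouse_96) to 7 (without Mouse_109). Il18 in obese minus control tumours turned from -0.04 to 0.23 with array weights, and the cause was not tested.

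Among the differences followed in this way, which are not all named genes in all comparisons, leaving out 1 tumour turned the direction of 12. None of the 12 was called, and differences of other genes near 0 turned as well. For obese minus control, Il1rn ran from -0.41 to 0.45, Il1rap from -0.55 to 0.15, Il18 from -0.42 to 0.51 and Il18bp from -0.67 to 0.11. For formerly obese minus obese, Il1rn ran from -0.41 to 0.15, Il1rap from -0.75 to 0.0285 and Il18 from -0.73 to 0.21. For obese sulindac minus obese, Il1a ran from -0.40 to 0.73, Il1b from -1.31 to 0.046, Il1rn from -0.086 to 0.70, Il1rap from -0.15 to 0.56 and Il18 from -0.19 to 0.74. No paired analysis was possible because the groups share no replicate numbers.

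With 5 or 6 tumours a group, genes of large spread allow only wide intervals. The base of the logarithm, the probe summaries and the detection of single probe sets are unknown, and genes below the dim mark are not well measured. The 2 pairs Il1f9 with Il1rl2 and Il17a with Il17f moved to r = 0.004 and 0.341 without the 2 farthest tumours; neither passed in the first place.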
